A study of Mus musculus with 4 samples.

Results

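Immediate early transcription factors were read out in 4 RNA-seq libraries from septic mice, as 10 genes of the 55401 rows of the count files: Fos, Fosb, Fosl2, Jun, Junb, Egr1, Atf3, Ier2, Myc and Klf6. The genes were chosen by symbol, with earlier results of these data known. They were found through the Ensembl identifier of each row, and all 10 were present. The libraries were 1 each from the kidney of the CLP group, the kidney of the CLP + MLT group, the heart of the CLP group and the heart of the CLP + MLT group. The question addressed was how the RNA of these genes differed between the CLP + MLT and the CLP library, within the kidney and within the heart.

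Immediate early genes are transcribed within minutes of a stimulus such as a growth factor, a cytokine, an oxidant or ischaemia, without the need for new protein synthesis, because the factors at their promoters (SRF with its ELK partners, and CREB) are already present and are switched on by MAP kinases. Their RNAs are short-lived, and several of their proteins act on the genes of feedback inhibitors that end the response. FOS and JUN proteins pair through leucine zippers to form AP-1, EGR1 and KLF6 bind through zinc fingers, MYC binds with its partner MAX, and all of them are known to be induced in the injured kidney and in the stressed heart.

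Every group consisted of C57BL/6 mice that had undergone CLP (cecal ligation puncture), an operation in which the cecum is tied off and pierced so that its bacteria spill into the abdomen and sepsis follows. The groups differed in whether the mice had received MLT (melatonin). According to the methods for the kidney experiment, the mice were male and 8 weeks old. Melatonin was given in the drinking water at 25 μg/ml with 0.1% ethanol for 14 days. CLP was done on day 15 and the kidneys were taken 24 h later. Water with 0.1% ethanol is stated for the sham group, and what the CLP group drank is not stated. No dose or time was given for the hearts, and neither the number of mice behind a library nor the meaning of the digit in the MLT labels (CLP+MLT4) was given in the sources used here. All libraries came from CLP mice and none from sham mice, so the change of these genes after CLP itself cannot be seen. With 1 library in a group, no difference has a replicate check, so the spread between mice within a group is unknown and no test within a tissue was possible. A fit over both tissues together, which would take the difference between tissues as error, was not run.

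The libraries held 22927905 (CLP) and 16474248 (CLP + MLT) counts on genes in kidney, and 16623050 and 15883057 in heart. Genes of the mitochondrial genome took 14.78% and 24.25% of these counts in kidney and 31.63% and 35.99% in heart. The tissue labels were checked against marker genes. The 7 cardiomyocyte markers summed to 31230 and 20670 CPM (counts per 1000000 counts on genes, after TMM scaling within a tissue) in the heart libraries and to 9.62 and 15.4 in the kidney libraries. The 7 kidney tubule markers, such as Umod and Slc34a1, summed to 25700 and 37170 CPM in kidney, and to 376 CPM in the CLP heart library and 806 CPM in the CLP + MLT heart library. The heart sums were 1.46% and 2.17% of those in the kidney library of the same treatment. For a single marker, Slc12a3, the share reached 4.22% and 5.81%. Kidney RNA at that highest share would make up 8.69% of the heart level of Myc in CLP, the largest value among the 10 genes. This takes the same share for all kidney RNA and CPM scaled separately in each tissue, so it sets no bound. The part of kidney RNA in the heart ratios was not tested.

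Promoter sequence was available for 7 of the 10 genes, namely Fos, Fosb, Fosl2, Jun, Junb, Atf3 and Klf6, in the RefSeq annotation of the GRCm38.p6 build. Shown here are Fos, Jun and Klf6, the 3 genes with a match to one of the motifs searched. The windows of Fosb, Fosl2, Junb and Atf3 held no match and are not printed. Each sequence runs 5′ to 3′ on the strand of the gene, from 250 to 11 bases before the transcription start. Capitals mark CRE-like elements (TGACNTCA), the CRE core (TGACGT), the E-box (CACGTG) and the TATA box (TATAAA). The windows are chr12:85473640-85473879 on the plus strand for Fos, chr4:95052233-95052472 on the minus strand for Jun and chr13:5861239-5861478 on the plus strand for Klf6.
Fos: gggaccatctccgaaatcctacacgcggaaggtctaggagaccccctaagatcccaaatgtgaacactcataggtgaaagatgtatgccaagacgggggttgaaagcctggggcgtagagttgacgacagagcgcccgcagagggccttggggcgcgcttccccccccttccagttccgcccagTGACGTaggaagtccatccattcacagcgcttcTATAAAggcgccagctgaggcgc
Jun: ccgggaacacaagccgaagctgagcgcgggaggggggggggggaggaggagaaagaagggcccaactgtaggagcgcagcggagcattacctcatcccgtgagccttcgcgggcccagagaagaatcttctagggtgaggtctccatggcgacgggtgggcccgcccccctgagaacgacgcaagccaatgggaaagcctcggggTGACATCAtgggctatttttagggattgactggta
Klf6: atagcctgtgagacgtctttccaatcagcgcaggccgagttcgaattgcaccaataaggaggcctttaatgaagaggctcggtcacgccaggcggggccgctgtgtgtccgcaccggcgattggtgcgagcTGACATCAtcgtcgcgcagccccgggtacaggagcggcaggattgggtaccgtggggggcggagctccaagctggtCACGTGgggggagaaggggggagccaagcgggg

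The Fos window holds a CRE core 66 to 61 bases before the start and a TATA box 33 to 28 bases before it. The Jun window has a CRE-like element at 45 to 38 bases, of the same letters, TGACATCA, as the one in the Klf6 window at 119 to 112 bases. Klf6 also has an E-box, the MYC and MAX motif, at 43 to 38 bases before its start. Both strands were searched, and a full CRE matches the CRE-like motif as well as the CRE core. The CRE-like motif was in 2 of the 7 windows, and the CRE core, the E-box and the TATA box in 1 each. Of all 32851 promoter windows of this length, 7.17% held the CRE-like motif, 6.09% the CRE core, 5.69% the E-box and 12.1% the TATA box. The AP-1 motif TGANTCA was in 6.58% of all windows and the CArG box, to which SRF binds, in 1.44%. Neither was found in the 7 windows. Sites more than 250 bases before the start were not searched, so this does not show that a gene lacks either motif. Egr1, Ier2 and Myc had no sequence to search. A match is a description of the letters only.

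In the kidney, 9 of the 10 genes passed the filter of a mean of 10 counts over both libraries, and all 9 had a lower CPM in the CLP + MLT library, as did 49.7% of all genes kept. At a fold of at least 1.5, the size used as a call in place of a test, 6 were lower (Fos, Fosl2, Jun, Egr1, Atf3 and Myc) and 0 were higher. Over all 16932 genes kept, 11.6% were lower and 11.0% higher by that fold. The ratio is that of CLP + MLT to CLP, on the log2 scale, and its median was −0.83, or 1.77-fold lower, beside 0.0029 for all genes. Of the 9, 6 lay among the lowest 10% of all genes by this ratio. The counting interval lay wholly below 0 for 8 of the 9 and wholly above for 0, where 25.6% and 26.2% of all genes did so. Among the 9387 genes that averaged 100 counts or more in both tissues, 30.5% lay wholly below 0. These shares are given as a description, because the 10 genes were chosen with earlier results of these data known. Beside the lower genes, the mitochondrial share was higher in the CLP + MLT kidney library, and reads aligned to several places made up 32.6% of that file against 23.6% for CLP. With mitochondrial and haemoglobin genes left out, 6 genes were again lower, at a median of −0.83. That setting changes only the scaling between the libraries, so the part of the mitochondrial share itself was not tested. Reads on no gene feature made up 33.0% of the CLP + MLT kidney file against 37.7% of the CLP kidney file. The part of the reads aligned to several places, and of those on no feature, was not tested. In RNA from whole tissue, fewer cells of a type and less RNA per cell cannot be told apart.

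**Figure D1:**
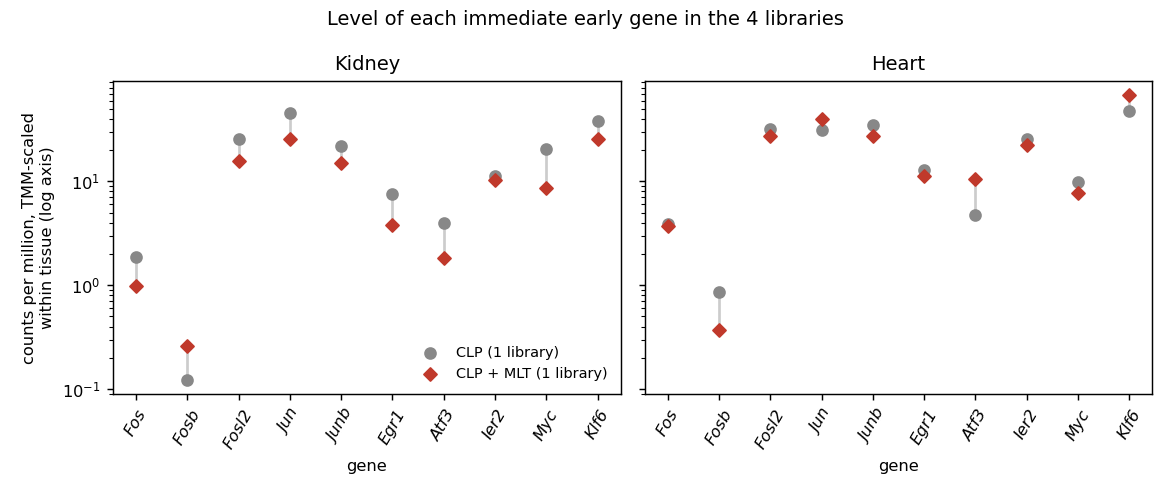
Level of each of the 10 genes in the 4 libraries, in CPM (log axis), with circles for CLP and diamonds for CLP + MLT, 1 library each. In kidney the CLP + MLT value is the lower one for all genes but Fosb, which had 3 and 4 counts, and in heart it is the higher one for Jun, Atf3 and Klf6.

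Among the FOS genes, Fos (ENSMUSG00000021250.13, chr12:85473890-85477273 in mm10, plus strand) had 46 counts in the CLP kidney library and 15 in the CLP + MLT kidney library. In CPM these were 1.88 and 0.974, a log2 ratio of −0.93. The 95% exact Clopper-Pearson interval of the counts was wide, −1.89 to −0.08, because so few reads fell on this gene, which encodes the best-known partner of JUN in AP-1. Fosl2 (ENSMUSG00000029135.10, chr5:32135801-32157842, plus strand), which encodes the longer-lived FRA2, had 627 and 242 counts, 25.6 and 15.7 CPM. Its log2 ratio was −0.70 (−0.92 to −0.49), so it was lower in the melatonin library, as Fos was. Fosb (ENSMUSG00000003545.3, chr7:19302696-19310051, minus strand) had 3 and 4 counts in kidney, did not pass the filter, and is given no ratio there. All intervals given here cover counting error only. Reads copied by PCR are not independent molecules, so the true error is larger.

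Of the JUN genes, Jun (ENSMUSG00000052684.4, chr4:95049034-95052222, minus strand) had 1125 counts in the CLP and 398 in the CLP + MLT kidney library. The levels were 45.9 and 25.9 CPM, and the log2 ratio was −0.83 (−1.0 to −0.66), an interval that lay wholly past 1.5-fold. Jun encodes the strongest activator of its family and is itself an AP-1 target. Junb (ENSMUSG00000052837.7, chr8:84974484-84978718, minus strand), whose protein activates more weakly and can act against JUN, had 537 and 229 counts. At 21.9 and 14.9 CPM its log2 ratio of −0.56 (−0.79 to −0.33) fell just inside the fold of 1.5. Each of these genes has a neighbour on the opposite strand, and the strand setting of the counting is not given, so reads from the overlap cannot be assigned. For Jun this is Junos, which overlaps it by 689 bases and had 61 and 18 counts in kidney. For Junb it is Prdx2, which overlaps it by 351 bases and had 3582 and 2695.

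Egr1 (ENSMUSG00000038418.7, chr18:34859823-34864984, plus strand), a zinc finger factor induced through SRF and ELK proteins, had 187 and 58 counts in the kidney libraries. Its CPM were 7.62 and 3.77, and its log2 ratio was −1.01 (−1.47 to −0.58). Atf3 (ENSMUSG00000026628.13, chr1:191170296-191218039, minus strand), a stress-induced factor that mostly represses and is an early marker of tubular injury, had 97 and 28 counts. Its CPM were 3.95 and 1.82, a log2 ratio of −1.11 (−1.78 to −0.50). Ier2 (ENSMUSG00000053560.5, chr8:84661331-84662852, minus strand), a nuclear protein with no clear DNA-binding domain, was the 1 gene of the 9 whose interval included 0. It had 277 and 160 counts, 11.3 and 10.4 CPM, and a log2 ratio of −0.12 (−0.41 to 0.17), and 38.4% of all genes had a lower ratio.

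Myc (ENSMUSG00000022346.16, chr15:61985391-61990374, plus strand), which drives genes of ribosome production and cell growth, had the lowest ratio of the 9. It had 499 counts in the CLP and 133 in the CLP + MLT kidney library, 20.3 and 8.64 CPM, a log2 ratio of −1.23 (−1.52 to −0.96) or 2.35-fold lower. Only 3.35% of the genes kept had a lower ratio, and Myc and Jun were the 2 genes whose interval lay wholly past the fold of 1.5. Klf6 (ENSMUSG00000000078.7, chr13:5861482-5870394, plus strand), a zinc finger factor induced by injury that binds GC-rich promoters, had 929 and 393 counts, 37.9 and 25.5 CPM. Its log2 ratio was −0.57 (−0.74 to −0.40), inside the fold of 1.5 by a margin as narrow as that of Junb.

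The kidney calls depended on the scaling and on the spread assumed between mice. Scaled by library size only, which set the median of all genes at −0.19, the median of the 9 genes was −1.02, Junb and Klf6 also passed the fold, and 8 were lower. By that scaling 1149 of all genes were higher and 3172 lower, where TMM scaling gave 1863 and 1971. With a call that also needed p of at most 0.01 by edgeR's exact test, 5 of the 6 stayed at an assumed coefficient of variation between mice of 0.1 (without Fos), 1 at 0.2 (Myc) and 0 at 0.4. Of all 16932 genes, that call left 1015 lower at 0.1, 330 at 0.2 and 67 at 0.4. It left 1033, 289 and 23 higher. These calls compare the libraries and not the conditions.

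**Figure D2:**
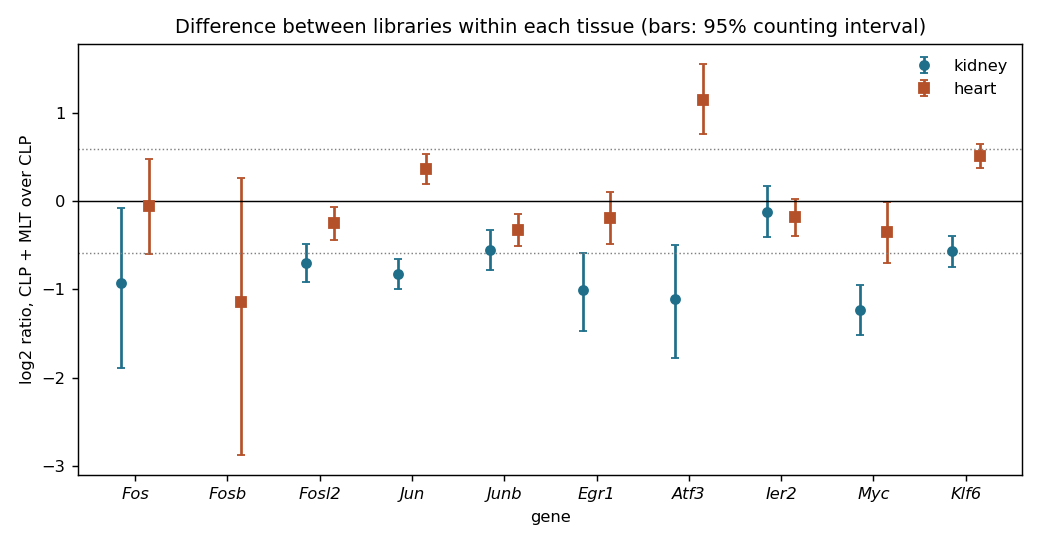
Log2 ratio (CLP + MLT to CLP) for each gene in kidney (circles) and heart (squares), with bars for the 95% exact interval from the counts and dotted lines at the fold of 1.5. In kidney 8 of 9 intervals lie wholly below 0 (25.6% of all genes), in heart 3 lie below (24.1%), 3 above (22.7%) and 4 include 0, and Fosb is not drawn for kidney.

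In the heart, all 10 genes passed the filter, and the ratios lay on both sides of 0. Atf3 was higher and Fosb lower by at least 1.5-fold, and the other 8 stayed within that fold. Of all 15871 genes kept in heart, 10.9% were higher and 12.6% lower, so 1 call each way among 10 genes was near the share of all genes. The median log2 ratio of the 10 genes was −0.19, beside 0.0023 for all genes. Jun, Atf3 and Klf6 had ratios above 0, and the other 7 below, beside 49.8% of all genes. The interval lay wholly above 0 for 3 genes and wholly below for 3, beside 22.7% and 24.1% of all genes.

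Atf3 had 78 counts in the CLP and 172 in the CLP + MLT heart library. Its CPM were 4.78 and 10.6, a log2 ratio of 1.15 (0.76 to 1.56) or 2.21-fold higher, and 96.3% of the genes kept had a lower ratio. The gene was thus called in both tissues, lower in the kidney and higher in the heart. Both calls were lost at an assumed variation of 0.2. How many of all genes were called in this way was not counted, but 5.75% had both counting intervals clear of 0 in these directions. Klf6 had 773 and 1092 counts, 47.4 and 67.4 CPM. Its log2 ratio of 0.51 (0.37 to 0.64) was 1.42-fold, short of the call. Jun had 506 and 645 counts, 31.0 and 39.8 CPM, and a log2 ratio of 0.36 (0.19 to 0.53). These 3 were the genes with a heart interval wholly above 0. Junos, the antisense neighbour of Jun, had 57 and 71 counts.

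The other heart ratios were small or rested on few counts. Fosb had 14 and 6 counts, a mean at the filter itself, and its log2 ratio of −1.15 carried an interval from −2.88 to 0.26. The call did not hold with a mean of at least 50 counts or with a p of at most 0.01 on the reads. Fosl2 had 525 and 438 counts (−0.25, −0.44 to −0.07), Junb had 563 and 445 (−0.33, −0.51 to −0.15), and Myc had 161 and 125 (−0.35, −0.70 to −0.01). These 3 were the genes with a heart interval wholly below 0, all within the fold of 1.5. For Junb, the neighbour Prdx2 had 1996 and 1152 counts in heart. Fos had 63 and 60 counts (−0.06, −0.60 to 0.47), Egr1 had 209 and 182 (−0.19, −0.48 to 0.10) and Ier2 had 418 and 365 (−0.19, −0.39 to 0.02). Fos, the founding member of the group, thus had nearly equal counts in the heart libraries. The Atf3 call was kept at an assumed variation of 0.1 and lost at 0.2 and 0.4.

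**Figure D3:**
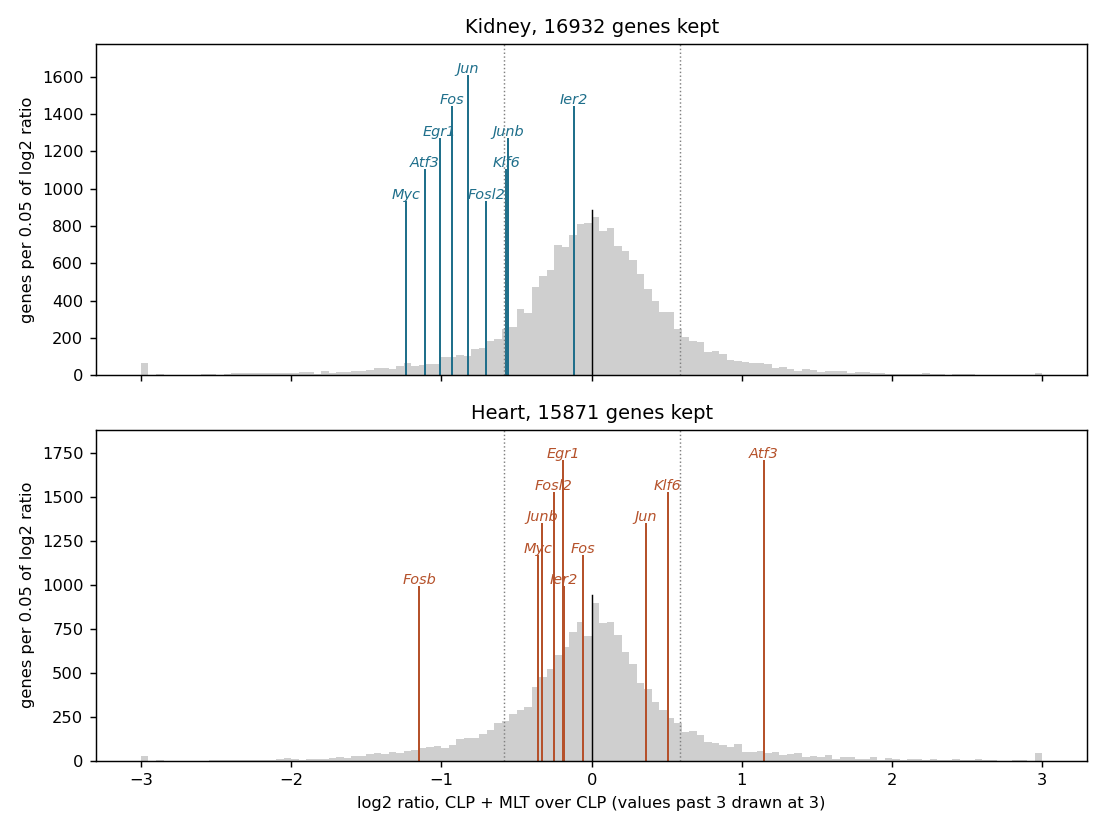
Distribution of the log2 ratio (CLP + MLT to CLP) over all genes kept in kidney (upper) and heart (lower), as the number of genes per 0.05 of log2 ratio, with a line for each immediate early gene and dotted lines at the fold of 1.5. The kidney lines lie on the low side, from −1.23 for Myc to −0.12 for Ier2, and the heart lines lie on both sides, from −1.15 for Fosb to 1.15 for Atf3.

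The ratios of kidney and heart were set side by side for the 9 genes kept in both tissues. The heart ratio was above the kidney ratio for 8 of the 9, by a median of 0.87 on the log2 scale, and the exact counting interval of the difference lay above 0 for 6. Of all 14592 genes kept in both tissues, 49.3% had the higher ratio in heart, and 23.2% had an interval wholly above 0. Among the 9387 genes that averaged 100 counts or more in both tissues, these shares were 48.0% and 25.9%. The difference was 2.26 for Atf3 (1.52 to 3.04), 1.19 for Jun (0.95 to 1.43) and 1.08 for Klf6 (0.86 to 1.30). In these 3 genes the kidney and heart ratios had opposite signs, each beyond its counting interval. Over all genes, 13.4% had opposite signs in this sense, and 5.75% were lower in kidney and higher in heart as these 3 were. Among the 9387 deeper genes the shares were 17.1% and 7.11%. Myc differed by 0.88 (0.43 to 1.33), Egr1 by 0.82 (0.30 to 1.37) and Fosl2 by 0.45 (0.16 to 0.74), with both ratios below 0 in each. The interval of the difference included 0 for Fos at 0.87 (−0.16 to 1.97), for Junb at 0.23 (−0.06 to 0.52) and for Ier2 at −0.07 (−0.42 to 0.29). With 1 library in each group the difference between tissues was not tested.

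Levels were compared between genes as TPM, the count per exon length scaled to the same total in each library. In the CLP kidney library Jun stood highest at 31.6 TPM, followed by Junb (20.9), Klf6 (19.0), Myc (16.5) and Ier2 (16.3). From Junb down to Ier2, each counting interval overlapped that of the next gene. Fosl2 (5.81), Atf3 (4.04), Egr1 (3.74), Fos (1.75) and Fosb (0.0431) came after, and of these neighbours only Atf3 and Egr1 overlapped. In the CLP + MLT kidney library Jun (13.4), Ier2 (11.3), Junb (10.7) and Klf6 (9.61) led, each overlapping the next. Myc came next at 5.25 TPM, then Fosl2 (2.68), Atf3 (1.40), Egr1 (1.39), Fos (0.685) and Fosb (0.0688), and the overlapping neighbours were Atf3 and Egr1, and Egr1 and Fos.

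The order in the heart differed at the top. In the CLP heart library Ier2 (29.4 TPM) and Junb (26.2) led with overlapping intervals, then Klf6 (18.9) and Jun (17), which overlapped too. Myc (6.35), Fosl2 (5.81), Egr1 (4.99), Atf3 (3.88) and Fos (2.87) followed, each overlapping the next, and Fosb was last at 0.240. In the CLP + MLT heart library Klf6 (29.6), Ier2 (28.5), Jun (24.1) and Junb (23.0) formed the top, again with overlapping neighbours. Atf3 moved from place 8 to place 5 at 9.50 TPM, above Myc (5.47), Fosl2 (5.38), Egr1 (4.83), Fos (3.04) and Fosb (0.114), where Myc, Fosl2 and Egr1 overlapped in turn. TPM carries no TMM scaling, so the TPM of a gene was not used to compare libraries. Fosl2 stood at 5.81 TPM in both CLP libraries, but at 25.6 CPM in the CLP kidney and 32.2 CPM in the CLP heart library. Fos in heart was higher in the CLP + MLT library by TPM and lower by CPM (3.86 in CLP and 3.71 in CLP + MLT).

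The makeup of the FOS and JUN families was then compared, since AP-1 pairs draw on whichever members are present. Fosl1, the remaining FOS gene, encodes FRA1 and is itself induced by AP-1. It had 32 and 2 counts in kidney, a log2 ratio of −3.10 (−6.43 to −1.36), and 18 and 43 in heart, a log2 ratio of 1.24 (0.44 to 2.15). Per length, Fosl1 took 15.7% of the FOS family in the CLP kidney and 2.98% in the CLP + MLT kidney library, and 9.61% and 22.8% in heart. Fosl2 took the largest share in all 4 libraries, 64.4% and 75.8% in kidney and 58.9% and 48.7% in heart. Fos held 19.5% and 19.3% in kidney and 29.1% and 27.5% in heart.

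Jund, the JUN gene that is present without a stimulus, had 2129 and 1179 counts in kidney, a log2 ratio of −0.18 (−0.28 to −0.08). It made up 68.5% of the JUN family per length in the CLP kidney and 75.9% in the CLP + MLT kidney library. In heart it had 376 and 449 counts (0.27, 0.07 to 0.47) and 35.9% and 40.5% of the family per length. By the same measure Jun took 18.9% and 13.4% in kidney and 25.2% and 30.4% in heart. Junb took 12.5% and 10.7% in kidney and 38.9% and 29.1% in heart. Exact intervals were computed on the shares of counts, which are not divided by length and cannot be added to the shares above. Jun made up 29.7% of the JUN family's counts in the CLP kidney library (28.2 to 31.2%). In the CLP + MLT kidney library it made up 22.0% (20.1 to 24%). In heart its share went the other way, from 35.0% (32.6 to 37.5%) to 41.9% (39.4 to 44.4%), while that of Junb was 39.0% (36.4 to 41.5%) and 28.9% (26.7 to 31.3%). In neither tissue did the intervals of the Jun share overlap. Those of Jund were apart in kidney (54.6 to 57.7% in CLP, 63.0 to 67.5% in CLP + MLT) but overlapped in heart. Those of Junb overlapped in kidney and were apart in heart. Shares within a family depend on each other, so this is not a result for Jun alone. The intervals cover counting error only, and how often such shares differ among all genes was not counted. By ratio, 25.6% of all genes were lower and 26.2% higher beyond counting error in kidney, and 24.1% and 22.7% in heart.

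**Figure D4:**
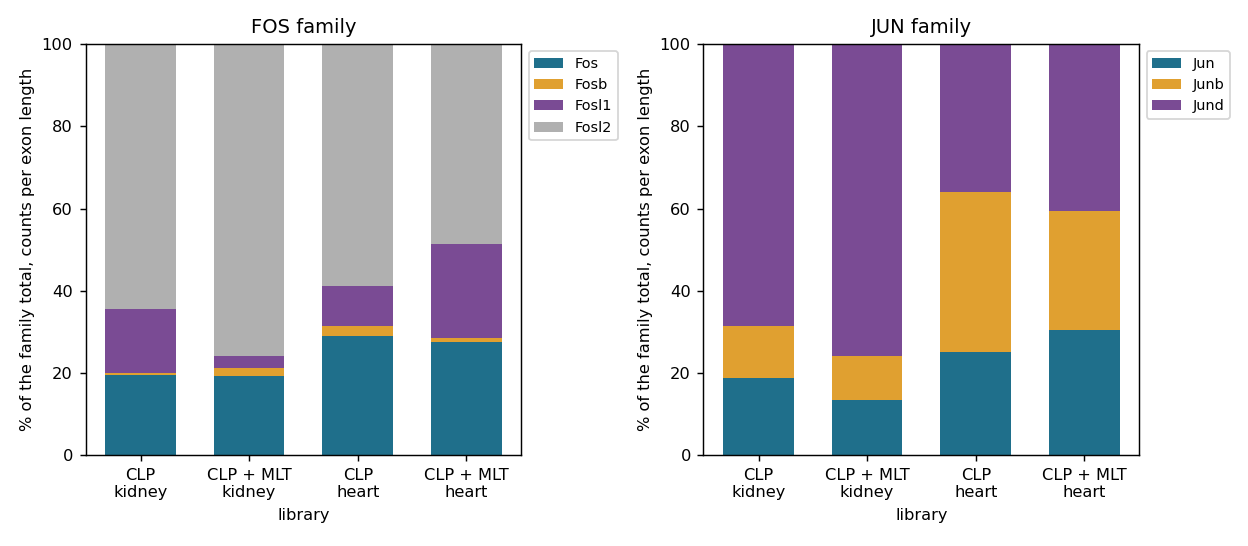
Share of each gene in the FOS family total (left) and the JUN family total (right), in percent of counts per exon length, for the 4 libraries. Fosl2 is the largest part of the FOS family throughout, Jund takes 68.5% and 75.9% of the JUN family in kidney and 35.9% and 40.5% in heart, and Fosl1 takes 2.98% in the CLP + MLT kidney library.

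Of 11 other AP-1 and related leucine zipper genes, all passed the filter in both tissues. For this list and those that follow, the shares of all genes past the fold of 1.5 serve as the comparison. They were 11.6% lower and 11.0% higher in kidney, and 12.6% lower and 10.9% higher in heart. In kidney 2 were higher and 2 lower by the fold of 1.5, with a median log2 ratio of −0.22, and in heart 3 were higher and 0 lower, with a median of 0.06. In kidney the lower ones were Fosl1 and Maff (−1.24), a small MAF protein without an activation domain. The higher ones were Batf (0.88, from 17 and 20 counts) and Batf3 (1.17, from 23 and 33 counts), which are AP-1 factors of immune cells. In heart the higher ones were Fosl1, Batf3 (1.53, from 14 and 41 counts) and Atf7 (0.63), a partner of JUN. Batf at 0.42 and Maff at −0.09 in heart, and Atf7 at −0.22 in kidney, were within the fold. Within it in both tissues (kidney, then heart) were Batf2 (−0.36 and −0.11), Jdp2 (0.11 and 0.00), Mafg (0.05 and 0.06), Mafk (−0.22 and −0.05) and Atf2 (−0.28 and −0.19).

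Of the 6 other EGR genes and nuclear receptors of the NR4A family, 3 passed the filter in kidney and 4 in heart. Nr4a1, which is induced by the same kinases as Egr1, had 116 and 41 counts in kidney, a log2 ratio of −0.82 (−1.38 to −0.30). In heart it had 312 and 403, a ratio of 0.38 (0.16 to 0.60), so that it lay on opposite sides of 0 in the same way as Jun. Nr4a2 had 17 and 25 counts in kidney (1.20) and was at −0.38 in heart, and Nr4a3 was at 0.08 and 0.13. Egr3 had 20 and 36 counts in heart (0.84, 0.03 to 1.72) and 1 and 0 in kidney. Egr2 had 15 and 3 counts in kidney and 5 and 3 in heart, below the filter in both. Egr4 had 0 counts in all 4 libraries. The median of this list was 0.08 in kidney, with 1 higher and 1 lower, and 0.25 in heart, with 1 higher and 0 lower.

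**Figure D5:**
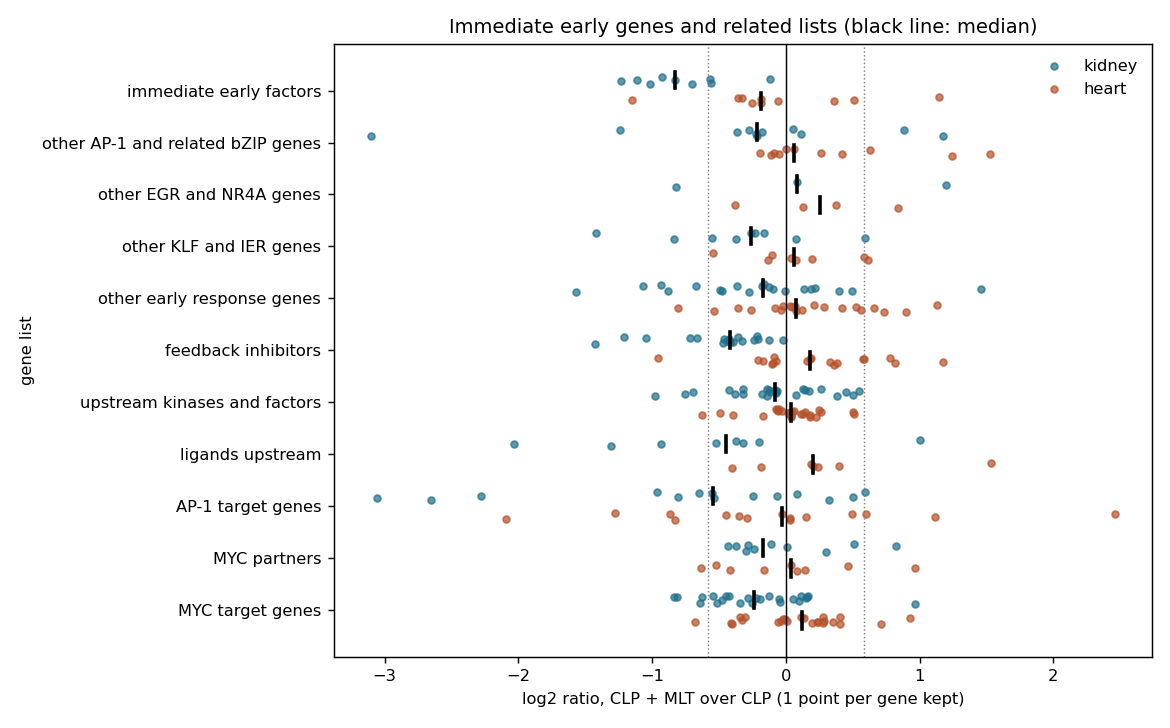
Log2 ratio (CLP + MLT to CLP) in kidney and heart for the immediate early genes and 10 lists of related genes, 1 point per gene kept, with a black line at the median and dotted lines at the fold of 1.5. The kidney median of the immediate early genes, −0.83, lies below that of each of the 10 lists, the nearest being AP-1 target genes at −0.54.

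The wider pathway was followed with lists written from general knowledge. Upstream of the immediate early genes, 25 kinases and factors such as MAP kinases, SRF and CREB were all kept, with 0 higher and 3 lower in kidney (median −0.08) and 0 higher and 1 lower in heart (median 0.04). The kidney genes named by the rule were Mapkapk2 (−0.98), a kinase downstream of p38, and Mrtfb (−0.76), a partner of SRF. In heart it was Egfr (−0.63), the receptor of EGF. Srf itself was within the fold, with 291 and 166 counts in kidney (−0.14) and 237 and 334 in heart (0.50). Of 13 ligands, 8 were kept in kidney with 1 higher, Egf (1.01), a growth factor made in the distal tubule, and 3 lower (median −0.45). In heart 7 were kept, with 1 higher and 0 lower (median 0.20).

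Feedback inhibitors, the phosphatases, SOCS and RNA-decay proteins that end the response, gave 19 genes kept of 19 in kidney. None of these was above 0 there, where 49.7% of all genes kept were below 0. By the fold of 1.5, 5 were lower and 0 higher, beside 11.6% and 11.0% of all genes, and the median was −0.42. Socs3, the inhibitor of cytokine receptors, was the gene named in kidney (−1.21, from 376 and 102 counts). Dusp1, the phosphatase that acts on MAP kinases, was at −0.12 and stayed within the fold. In heart 18 were kept, 4 of them higher and 1 lower, with a median of 0.18. Named there were Spred1 (0.81), which blocks RAF, and Zfp36l2 (0.78), which marks RNA for decay. Of 21 other early response genes, 20 were kept in kidney with 1 higher and 5 lower (median −0.17), and 21 in heart with 4 higher and 1 lower (median 0.07). Ccn1, a matrix protein, was at −1.57 and Gadd45g, a stress protein, at 1.46 in kidney, while Bhlhe40, a repressor, was at 0.90 and Nfil3, a leucine zipper repressor, at −0.81 in heart.

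The list of 9 other KLF and IER genes had 1 higher and 2 lower in kidney (median −0.26), and in heart 1 higher and 0 lower of 8 kept (median 0.06). Klf9, induced by glucocorticoids, was at −0.84 and Ier5l at 0.59 in kidney, and Ier3 was at 0.61 in heart. By library size only, Ier5l no longer passed the fold. Of 10 MYC partners, all were kept in kidney, with 1 higher and 0 lower (median −0.17). In heart 9 were kept, with 1 higher and 1 lower, Mxd3 at −0.63, a competitor of MYC for MAX (median 0.04). Of 24 MYC target genes, 1 was higher and 4 were lower in kidney (median −0.24), against 2 and 1 in heart (median 0.12). Tfrc, the transferrin receptor, was at −0.83 and Srm, of spermidine synthesis, at −0.82 in kidney. Gnl3, a nucleolar protein, was at 0.71 and Ldha, of lactate metabolism, at −0.68 in heart.

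Genes known as AP-1 targets had the lowest median of these lists in kidney, −0.54, with 1 higher and 6 lower of 14 kept. Hmox1, the haem-degrading enzyme, had 4739 and 472 counts (−2.65), and Spp1, osteopontin, a secreted marker of tubular injury, had 251014 and 32496 (−2.28). Both take input from other factors as well as AP-1. In heart 15 were kept, with 3 higher and 4 lower and a median of −0.03. Plau, urokinase, was the highest named there (2.46, from 31 and 172 counts) and Timp1, an inhibitor of matrix proteases, the lowest (−2.09, from 199 and 46 counts). Plau stood at 368 and 522 CPM in kidney against 1.90 and 10.6 in heart, where the tubule markers were higher in the CLP + MLT library too, and their part in its ratio was not tested.

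Scaling by library size only changed some of these counts. In kidney 12 of 19 feedback inhibitors and 9 of 24 MYC target genes were then lower, where 3172 of all 16932 genes kept were lower. The median of the other EGR and NR4A genes was −0.10, below 0. In heart Egfr and Mxd3 were then within the fold, and the AP-1 target median was 0.03, above 0. The markers that follow shifted with it, with 3 of 5 endothelial genes lower and 1 of 7 tubule genes higher in kidney, and heart medians above 0 for smooth muscle (0.04) and red cells (0.02).

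Cell type markers were compared in the same way, beside 11.6% of all genes lower and 11.0% higher in kidney, and 12.6% and 10.9% in heart. In kidney the tubule markers had a median of 0.41 with 3 of 7 higher, and the macrophage markers 0.75 with 4 of 6 higher and 1, Cd14, lower (−2.83). Below 0 were the medians of the endothelial (−0.43, 0 of 5 past the fold), podocyte (−0.46, 2 of 4 lower), fibroblast (−0.35, 1 of 4 kept lower) and smooth muscle markers (−0.35, 1 of 4 lower). The neutrophil markers were at −0.01 (1 of 4 higher and 1 lower) and the red cell markers at 0.38 (1 of 5 higher and 1 lower). The endothelial markers summed to 207 and 158 CPM and the macrophage markers to 117 and 207 CPM. Of 7 lymphocyte markers 1 was kept, at −0.93 and lower, and of 5 adipocyte markers 3 were kept, with 2 lower and a median of −1.29. The cardiomyocyte markers, few in counts here, had a median of 0.80 with 3 of 6 kept higher. The neutrophil genes Mpo and Ly6g had 0 counts in all 4 libraries. The part of these shifts in the lower immediate early genes of the kidney was not tested.

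In heart the cardiomyocyte markers had a median of −0.39, with 0 of 7 higher and 2 lower, beside the tubule markers at 1.32, with 5 of 7 higher. The endothelial markers were at 0.36 (640 and 792 CPM summed, 1 of 5 higher) and the macrophage markers at 0.30 (147 and 240 CPM, 2 of 6 higher). The medians were −0.32 for fibroblasts (1 of 5 lower), −0.32 for neutrophils (1 of 4 kept lower), −0.02 for smooth muscle, −0.04 for red cells and 0.07 for podocytes, the last 3 with 0 past the fold. No lymphocyte marker and 1 adipocyte marker (0.14) passed the filter. The part of these shifts in the heart ratios of Atf3, Jun and Klf6 was not tested.

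The pattern of Fos over both tissues was compared with that of 9387 genes that averaged 100 counts or more in each. Nearest by Euclidean distance over the pair of log2 ratios were Dnajb9 (0.0111), Fer (0.0381), Dtx3l (0.0708), Sec24d (0.0709) and Alpl (0.0737). Dnajb9 had 1029 and 340 counts in kidney and 224 and 215 in heart, ratios of −0.92 and −0.05. The likeness rests on 2 ratios from 4 libraries and on the 46 and 15 kidney counts of Fos. Of the other immediate early genes, 7 had enough counts to be compared, and none of these was among the 5.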

How the data were processed

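RNA was sequenced from 4 libraries, 1 each of CLP kidney, CLP + MLT kidney, CLP heart and CLP + MLT heart. The authors prepared poly(A) libraries, trimmed the reads with trim-galore and aligned them with HISAT2 2.1.0 to mm10. The files deposited hold raw counts of reads per gene. HTSeq is listed in the submitters' processing notes, and how it was run (version, strand, annotation) was not given in the sources used here. The last 5 rows of a file name no gene. They held 65.5 to 72.8% of the file totals and were left out.

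Gene names and positions came from GENCODE M21 (GRCm38, the build of mm10), which matched 55141 of the 55401 identifiers. TMM factors were computed within each tissue with edgeR 4.0.16 in R 4.3.3, over genes averaging 10 counts or more across both libraries, and were 1.07 and 0.935 in kidney and 0.981 and 1.02 in heart. DESeq2 1.42.0 gave alternative size factors. Log2 ratios (CLP + MLT to CLP) were computed with a prior count of 0.5 and an exact Clopper-Pearson interval at 95%. The study states edgeR with a fold of at least 1.5 and p of at most 0.01. With 1 library a group no dispersion can be estimated within a tissue, so the fold alone was the call. The rest was done in Python 3.11.15 (pandas 2.3.3, scipy 1.17.1, numpy 2.4.6, and matplotlib 3.10.9 for figures). The procedure was also run on simulated counts that held counting error only. Those counts had no spread between mice, so they cannot show how often the calls would hold in other mice. TPM values were computed from the deposited counts and the exon length of each gene.

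The members and lists were chosen with earlier results of these data known. All 10 members and all other AP-1, EGR and NR4A genes are named. From each other list the 2 genes with the largest absolute ratio in each tissue were named, among those past the fold with a mean of at least 100 counts. Dusp1 and Srf were named after their values were seen, and the comparison of tubule markers between heart and kidney libraries was also added later. Alternatives changed the scaling, the filter, the prior count and the call.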

Additional observations from a re-analysis of the deposited data

Results flagged for a closer look

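In 3 genes the ratio of CLP + MLT over CLP had opposite signs in kidney and heart, with both counting intervals clear of 0. Of all 14592 genes kept in both tissues, 13.4% met the same description. Among the 9387 genes that averaged 100 counts or more in both tissues, 17.1% did. The heart minus kidney difference in log2 ratio was 1.19 for Jun, from −0.83 in kidney and 0.36 in heart. It was 2.26 for Atf3, from −1.11 and 1.15, and 1.08 for Klf6, from −0.57 and 0.51. The Jun and Klf6 heart ratios stayed within the fold of 1.5, as did the Klf6 kidney ratio. Each tissue had 1 library in each group, so the difference between the tissues was not tested against the spread between mice, and it is not known whether heart and kidney came from the same animals.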

How the results depend on the processing

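Scaled by library size only, the kidney median of the members was −1.02 (Jun −1.02, Klf6 −0.76) where all genes were at −0.19. With no filter 1 member was higher in kidney, Fosb on 3 and 4 counts, beside 4711 of all 25626 genes then kept. A fold of 2 left 3 members lower in kidney (Egr1, Atf3 and Myc), beside 830 of all 16932 genes kept. Assumed variations of 0.2 and 0.4 left 1 and 0 lower there, beside 330 and 67 of the 16932 genes. At both of these variations 0 members were higher in heart, beside 292 and 42 of all 15871 genes. In heart 0 members were lower with a mean of at least 50 counts, with the exact binomial test on the reads, and at each assumed variation. The cause of these shifts was not tested beyond what each setting removes. Under the 5 settings of scaling, composition and prior count, which can move a single gene, 93 of 95 recomputed member values stayed within their counting interval and 0 changed sign.

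Over all genes kept in kidney, higher and lower calls were 4711 and 5984 of 25626 with no filter, and 1002 and 1012 of 13355 at a mean of 50. With 16932 genes kept, they were 699 and 830 at a fold of 2, and 1296 and 1251 with the test on the reads. Assumed variations of 0.1, 0.2 and 0.4 left 1033 and 1015, 289 and 330, and 23 and 67 of these. In heart the calls were 5083 and 5378 of 23881 with no filter, and 727 and 1143 of 12138 at a mean of 50. With 15871 genes kept, they were 730 and 829 at a fold of 2, and 1089 and 1388 with the test on the reads. The same 3 assumed variations left 783 and 1137, 292 and 370, and 42 and 21 in heart. No paired analysis was possible because each group had 1 library, which also left no library to omit. Depth limits Fosb in both tissues and Fos in kidney.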
